A study of Mus musculus with 52 samples.

Results

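The genes described here encode the proteins of the cytosolic ribosome, the machine that translates most messenger RNA. They were taken by name, as mouse symbols of the form Rpl or Rps followed by digits and at most one letter (a, x, l or y), together with Rplp0, Rplp1, Rplp2 and Rpsa. A gene had to have a microarray probe set annotated to it alone, and where it had several, the brightest on average over the 52 arrays stood for it. Of the 18194 genes measured in this way, 46 met the rule, 24 of the large subunit and 22 of the small subunit. The names of 83 genes in the RefSeq gene table match the pattern, and 37 of these had no probe set of their own among the 34958 sets annotated to 1 gene. Rplp1, Rpl3, Rpl5, Rpl10l and Rps27a are among them and were not analysed here.

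The study followed the liver of mice after partial hepatectomy, in which several lobes are cut away and the lobes left behind grow back. Whole-liver RNA was measured on 52 Affymetrix Mouse Genome 430 2.0 arrays, 1 per sample. The 47 arrays of operated mice were taken 1 hour (n = 3), 6 hours (n = 4), 12 hours (n = 4), 24 hours (n = 11), 48 hours (n = 4), 3 days (n = 4), 4 days (n = 4), 1 week (n = 4), 2 weeks (n = 2), 4 weeks (n = 4) and 3 months (n = 3) after surgery, and 5 arrays came from untreated controls. All mice were C57Bl6/N labelled male and labelled 8 to 12 weeks old, with no transgene or deletion named. Mice taken 3 months after surgery must have been older than this when sampled. Age and time after surgery can therefore not be told apart at the late times. The controls were not operated, so anaesthesia, surgery and tissue removal cannot be told apart, and the controls are labelled with no time.

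Ribosomal proteins are made in large and matched amounts, assembled with ribosomal RNA in the nucleolus and exported as subunits. Their messenger RNAs carry a run of pyrimidines at the 5′ end, the 5′ terminal oligopyrimidine or TOP motif, through which mTOR signalling controls their translation, and Myc is a known activator of their transcription. Growing cells raise ribosome production before they divide, and liver regrowing after resection is a classical setting in which this has been studied.

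Values are log2 signals after robust multi-array averaging (RMA), so a difference of 1 is a doubling of signal. Signals of different probe sets are not comparable amounts, and only changes within a probe set were tested. A gene was called higher or lower at a Benjamini-Hochberg adjusted p under 0.05 in a limma fit over all genes. In whole liver, fewer cells of a type and less RNA per cell cannot be told apart. The labels do not say whether arrays of a group came from separate animals, so p-values reflect only how these samples varied, which may be technical.

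Some arrays stood apart. The Gapdh 3′ minus 5′ signal difference, a measure of RNA quality, averaged 0.65 to 1.10 log2 units in the 11 operated groups and 1.61 ± 0.57 in the controls (SD, n = 5), so it was higher in the controls than in every operated group. It was 2.32 on 24-hour replicate 1, and 2.56 on control replicate 1, against 1.12 to 1.73 in the other controls. Control replicate 1 also had low values for several ribosomal protein genes. Spiked hybridization controls, bacterial sequences added to every sample, averaged 9.73 to 10.38 in the 11 operated groups and 10.85 ± 0.29 in the controls (SD, n = 5). At 24 hours, replicates 9, 10 and 11 carried Xist signals of 9.15, 9.48 and 9.12 although all mice were labelled male. Hepatocyte markers averaged 13.04 to 13.28 on the 24-hour arrays, against 13.24 to 13.31 on the controls. Of 6 hepatocyte markers 2 were called lower and 0 higher at 24 hours, where 12.8% of all genes were called lower. On days 3 and 4 and at 3 months 1 was called higher, and at 1 week 1 lower. Alb averaged 13.97 in controls, where the brightest probe set of each array lay between 13.92 and 14.24, so such signals can saturate. Macrophage markers averaged 5.41 to 7.19 at 24 hours, against 3.98 to 4.93 in controls. Of the 9 macrophage markers, 8 were called higher at 24 hours and 0 lower, and no marker is at 0, since the scale has no zero. At the other times 3 to 8 of the 9 were called higher, with 8 at 1 week and at 3 months, and 0 lower. Of 4 neutrophil markers 2 were called higher at 6, 12 and 24 hours, on days 3 and 4 and at 1 week. At 48 hours, on days 3 and 4, at 1 week and at 3 months 1 of these 4 was called lower. Of 5 endothelial markers 2 were called higher and 1 lower at 24 hours, and 3 higher on day 3 and 2 on day 4. Of 5 stellate cell and fibroblast markers 2 were called higher on days 3 and 4. At 6, 12 and 48 hours and at 1 week 1 of these 5 was called lower. Of all genes 2.8% to 21.8% were called higher at the 11 times, and 18.9% at 24 hours. The part of these differences in the results was not tested beyond the counts given with and without them.

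The start of the gene is where the TOP motif lies, so these sequences were read first. RefSeq windows of the GRCm38.p6 build, 250 bases before to 50 after each annotated start, were found for 40 of the 46 genes. A run was defined as a C followed by at least 4 pyrimidines, its C within 5 bases of the annotated start, on the strand of the gene. Windows of 30 bases, in which the 16th base is the annotated start, are shown for genes that carry a run, in capitals, and then for a pair of the strongest responders that do not.
Rpl35, chr2:39005117-39005146, minus strand: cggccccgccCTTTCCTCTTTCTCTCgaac
Rps18, chr17:33955651-33955680, minus strand: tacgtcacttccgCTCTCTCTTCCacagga
Rpl38, chr11:114668565-114668594, plus strand: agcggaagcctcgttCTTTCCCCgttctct
Rps9, chr7:3704026-3704055, plus strand: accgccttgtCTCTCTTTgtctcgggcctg
Rplp0, chr5:115559452-115559481, plus strand: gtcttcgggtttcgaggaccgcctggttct
Rpl41, chr10:128549154-128549183, minus strand: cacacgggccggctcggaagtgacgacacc

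Such a run was present in 19 of 40 ribosomal protein genes (47.5%), against 19.9% of the 14369 tested genes with a window and 18.5% of all 27025 windows. Annotated starts can differ from the start used in liver, so a missing run says only that these letters are not at this annotated position. The heptamer CCGGAAG, the core bound by ETS factors such as GABP, was searched on both strands of the whole window and can overlap a pyrimidine run on its reverse strand. It occurred in 20 of 40 genes, against 13.8% of the tested genes with a window and 9.12% of all windows. Both motifs occurred in 12 genes and neither in 13. The windows below show the heptamer in capitals in 3 genes of different response.
Rpl41, chr10:128549207-128549236, minus strand: ctagtaaggcagCCGGAAGtcgctgtctcg
Rps6, chr4:86857441-86857470, minus strand: gttaatctacgcCCGGAAGtaacgcccctc
Rpl11, chr4:136053370-136053399, minus strand: aaggccacggggCCGGAAGtctccctctct
Genes with the run changed at 24 hours by a median of 0.47 log2 units, and those without it by 0.45. For the heptamer the medians were 0.46 with and 0.47 without.

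Ribosomal protein genes were called higher than in controls most often at 24 hours, then on day 3 and at 12 hours, and less often at the other 8 times. With 11 arrays at 24 hours and 2 to 4 at the other times, smaller changes could be called at 24 hours. These counts are therefore not like for like. At 24 hours 36 of the 46 genes were called higher and 0 lower than in controls (limma adjusted p), where 18.9% of all genes were called higher and 12.8% lower. Over all genes these were 3447 calls higher and 2329 lower, a split that depended on scaling, with 4055 and 1420 after median centring and 2823 and 2968 after quantile normalization. The median change over the 46 genes was 0.46 log2 units, a 1.37-fold level, while the median over all 18194 genes was -0.01. Only 4 genes, Rpl41, Rps9, Rplp0 and Rps19, were called with a change of at least 2-fold. The change was thus spread over many genes and small in most. All 24-hour arrays lay above all controls in 25 of the 46 genes, where 6.55% of all genes did so. In place of 36, the count was 32 without control replicate 1 and 31 without the Xist-positive arrays. It was also 31 without 7 doubted arrays. These were replicates 1, 9, 10 and 11 of 24 hours, 4 of 1 week and 1 of 4 weeks, plus the first control. The count was 30 with the Gapdh difference as a covariate and 27 with the hybridization controls as a covariate. The median change was 0.37 at 12 hours and 0.36 on day 3. Without the doubted arrays it was 0.352 at 24 hours and 0.349 at 12 hours. With the mean of each gene's probe sets it was 0.345 at 24 hours and 0.350 on day 3. After quantile normalization it was 0.34 at 24 hours, 0.20 at 12 hours and 0.25 on day 3. These times were not tested against each other.

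**Figure D1:**
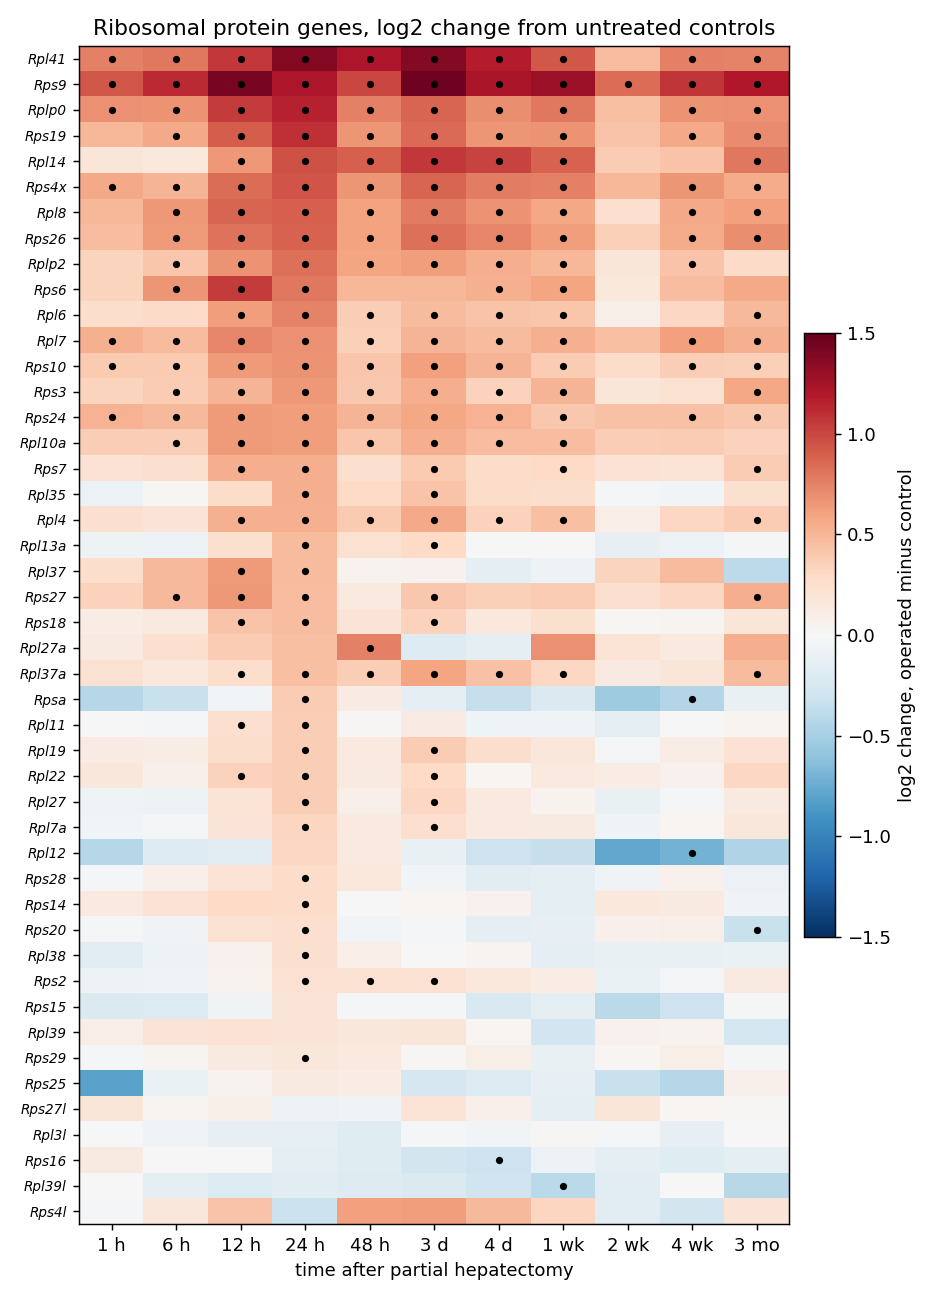
Log2 change from untreated controls (colour) for the 46 ribosomal protein genes (rows, sorted by the change at 24 hours) at the 11 times after partial hepatectomy (columns), with a black dot where the gene was called. The column at 24 hours holds 36 calls, all of them higher, and the one at 2 weeks holds 1.

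Early on, 7 genes were called higher after 1 hour, 15 after 6 hours, 24 after 12 hours, 36 after 24 hours and 19 after 48 hours. From day 3 on, 27 genes were called higher on day 3, 18 on day 4, 19 after 1 week, 1 after 2 weeks, 11 after 4 weeks and 17 after 3 months. The share of all genes called higher at these 11 times, in the same order, was 3.67%, 11.4%, 17.9%, 18.9%, 17.4%, 21.7%, 18.8%, 21.8%, 2.8%, 9.33% and 16.7%. At 2 weeks the share among the 46 genes, 2.17%, was near that background, with 2 arrays. Calls of lower genes were rare. They were Rps16 at 4 days, Rpl39l at 1 week, Rpl12 and Rpsa at 4 weeks and Rps20 at 3 months, where 14.1%, 14.9%, 5.39% and 13.4% of all genes were called lower at those times. With a moderated F test over all times, 40 of the 46 genes were called, against 64.6% of all genes.

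Counts from day 3 on were lowest with a technical covariate. With the hybridization controls as a covariate the calls were 20 at 12 hours and 27 at 24 hours, but 1 on day 3 and 0 on day 4 and after 1, 2 and 4 weeks and 3 months. At these later times the median change was then 0.24, 0.15, 0.12, -0.002, 0.10 and 0.11, against 0.36, 0.21, 0.26, 0.11, 0.12 and 0.22 without the covariate. This covariate was higher in the controls than in every operated group, so it partly overlaps the comparison itself. Why calls were lost was not tested. Without control replicate 1 there was 1 call after 1 hour, 6 after 6 hours, 12 after 48 hours and 12 on day 4.

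On each array, the median over the 46 genes of the value minus the control mean gives one number for the whole group. It lay between 0.11 and 0.20 on the 1-hour arrays, 0.10 and 0.26 on the 6-hour arrays, 0.29 and 0.45 on the 12-hour arrays, and 0.26 and 0.61 on the 11 arrays of 24 hours, against -0.17 to 0.13 in the controls. Every 12-hour and 24-hour array was thus above every control. It was 0.23 to 0.31 after 48 hours, 0.22 to 0.46 on day 3 and 0.03 to 0.33 on day 4. At 1 week, 3 arrays lay between 0.07 and 0.13 and replicate 4 at 0.79, so the median change of 0.26 at that time became 0.06 without it. That array was also the highest of all 52 in the mean of the macrophage markers, 7.97. At 4 weeks replicate 1 lay at 0.40 and the others between -0.08 and 0.16, and without it 5 genes were called.

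**Figure D2:**
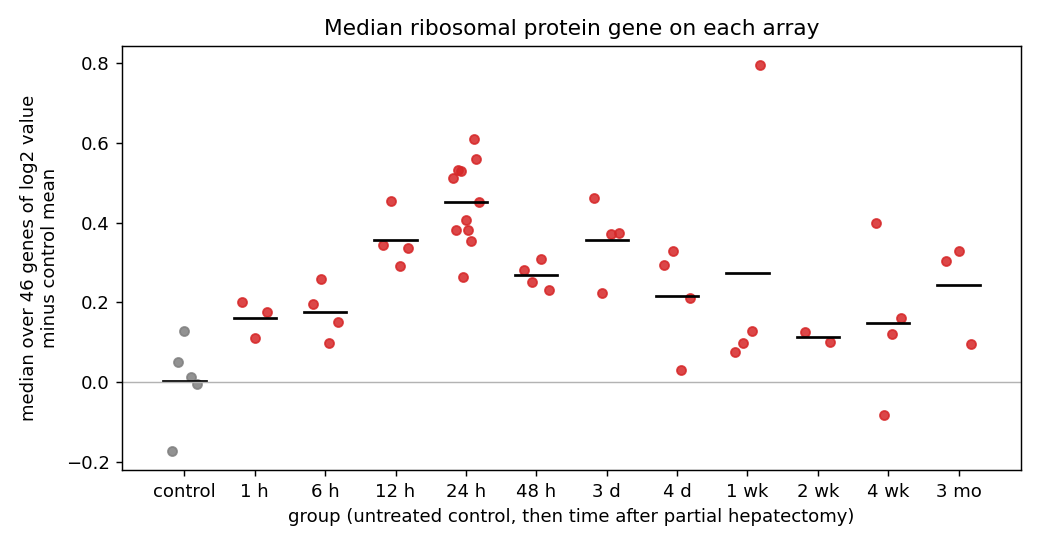
Median over the 46 ribosomal protein genes of the log2 value minus the control mean, 1 point per array, with controls in grey, operated mice in red and the group mean as a line. The 24-hour arrays lie between 0.26 and 0.61, the controls between -0.17 and 0.13, and 1-week replicate 4 stands alone at 0.79.

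Rplp0 and Rplp2 encode proteins of the stalk, the flexible arm of the large subunit that recruits translation factors. Rplp0, the protein that anchors the stalk, had values of 11.86, 11.87, 11.82 and 11.85 at 12 hours and a range of 11.69 to 12.44 with a median of 11.88 at 24 hours, against 9.79, 11.30, 10.98, 11.15 and 10.79 in controls. Every array at both times exceeded every control, and the low control was replicate 1. The change at 24 hours was 1.16 ± 0.14 (SE), a 2.23-fold level (limma adjusted p = 3.3e-08), and was 0.90 without control replicate 1. Rplp0 was called higher at 10 of the 11 times, all but 2 weeks. Rplp2, one of the acidic proteins of the stalk, averaged 12.14 ± 0.23 at 24 hours (SD, n = 11) and 11.32 ± 0.31 in controls (SD, n = 5), a change of 0.82 ± 0.11 (SE). It was called higher at 8 times.

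Rpl41, a very small basic protein at the interface of the subunits, had the smallest F test p of the 46 genes. Its values were 11.80, 11.78, 11.82 and 11.84 at 12 hours and 11.81 to 12.60, with a median of 11.99, at 24 hours, against 10.06, 11.09, 10.93, 10.99 and 10.67 in controls. No operated array at these times reached down to the controls. The change at 24 hours was 1.38 ± 0.13 (SE), a 2.59-fold level (limma adjusted p = 2.4e-10), and was 1.00 without the 7 doubted arrays. A second bright probe set of Rpl41 changed by 0.80, and a pair of dim ones by 0.38 and 0.10. Rpl8, which lies close to the site of peptide bond formation, changed by 0.89 ± 0.12 (SE) at 24 hours, with means of 11.28 ± 0.16 (SD, n = 11) at 24 hours and 10.39 ± 0.42 in controls (SD, n = 5).

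Among the small subunit proteins Rps9, which sits near the channel where messenger RNA enters, was the only gene of the 46 called higher at all 11 times. It had 11.64, 11.67, 11.59 and 11.62 at 12 hours and 11.87, 11.40, 11.62 and 11.75 at 3 days, against 9.18, 10.67, 10.43, 10.58 and 10.17 in controls. All of these operated values were above the highest control. The change was 1.42 ± 0.19 (SE) at 12 hours (limma adjusted p = 2.6e-07). The direction depends on the probe set: a second Rps9 set with a mean signal of 10.61 differed by -0.74 between 24 hours and controls, where the chosen set rose by 1.22. It was the only gene, among 17 with several probe sets of mean signal 10 or more, whose bright sets pointed in both directions at 24 hours. With dim sets included, 11 of the 23 genes with several probe sets had both signs at that time.

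Rps19, mutated in human Diamond-Blackfan anaemia, had values of 10.92 to 11.03 at 12 hours (n = 4) and 10.80 to 11.50 at 24 hours, with a median of 11.10, against 9.44, 10.39, 10.20, 10.19 and 10.11 in controls. The groups did not overlap, and the change at 24 hours was 1.09 ± 0.14 (SE, limma adjusted p = 7.9e-08). Rps4x, the X-linked protein of the small subunit, changed by 0.94 ± 0.12 (SE) at 24 hours, and by 0.71 without control replicate 1. Its dim second probe set, of mean signal 4.61, differed by -0.23. Rps26, which contacts messenger RNA at the exit side, changed by 0.89 ± 0.11 (SE), with little spread among controls (10.76 ± 0.17, SD, n = 5). Rps3, at the messenger RNA entry channel, changed by 0.65 ± 0.10 (SE).

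Rps6, the substrate of S6 kinase and a common readout of mTOR activity, was brightest at 12 hours. It had 8.36, 8.50, 8.37 and 8.18 at 12 hours, against 6.71, 7.37, 7.51, 7.76 and 7.19 in controls, with no overlap. Its rise was 1.04 ± 0.21 (SE) at 12 hours (limma adjusted p = 1.4e-04) and 0.80 ± 0.17 (SE) at 24 hours, where the 11 arrays spread from 7.15 to 8.71 and overlapped the controls. The chosen probe set is dim for an abundant transcript, and its 24-hour call was lost with the hybridization controls as a covariate (limma adjusted p = 0.095). A second, dimmer set of mean signal 2.83 differed by -0.11 at 24 hours.

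**Figure D3:**
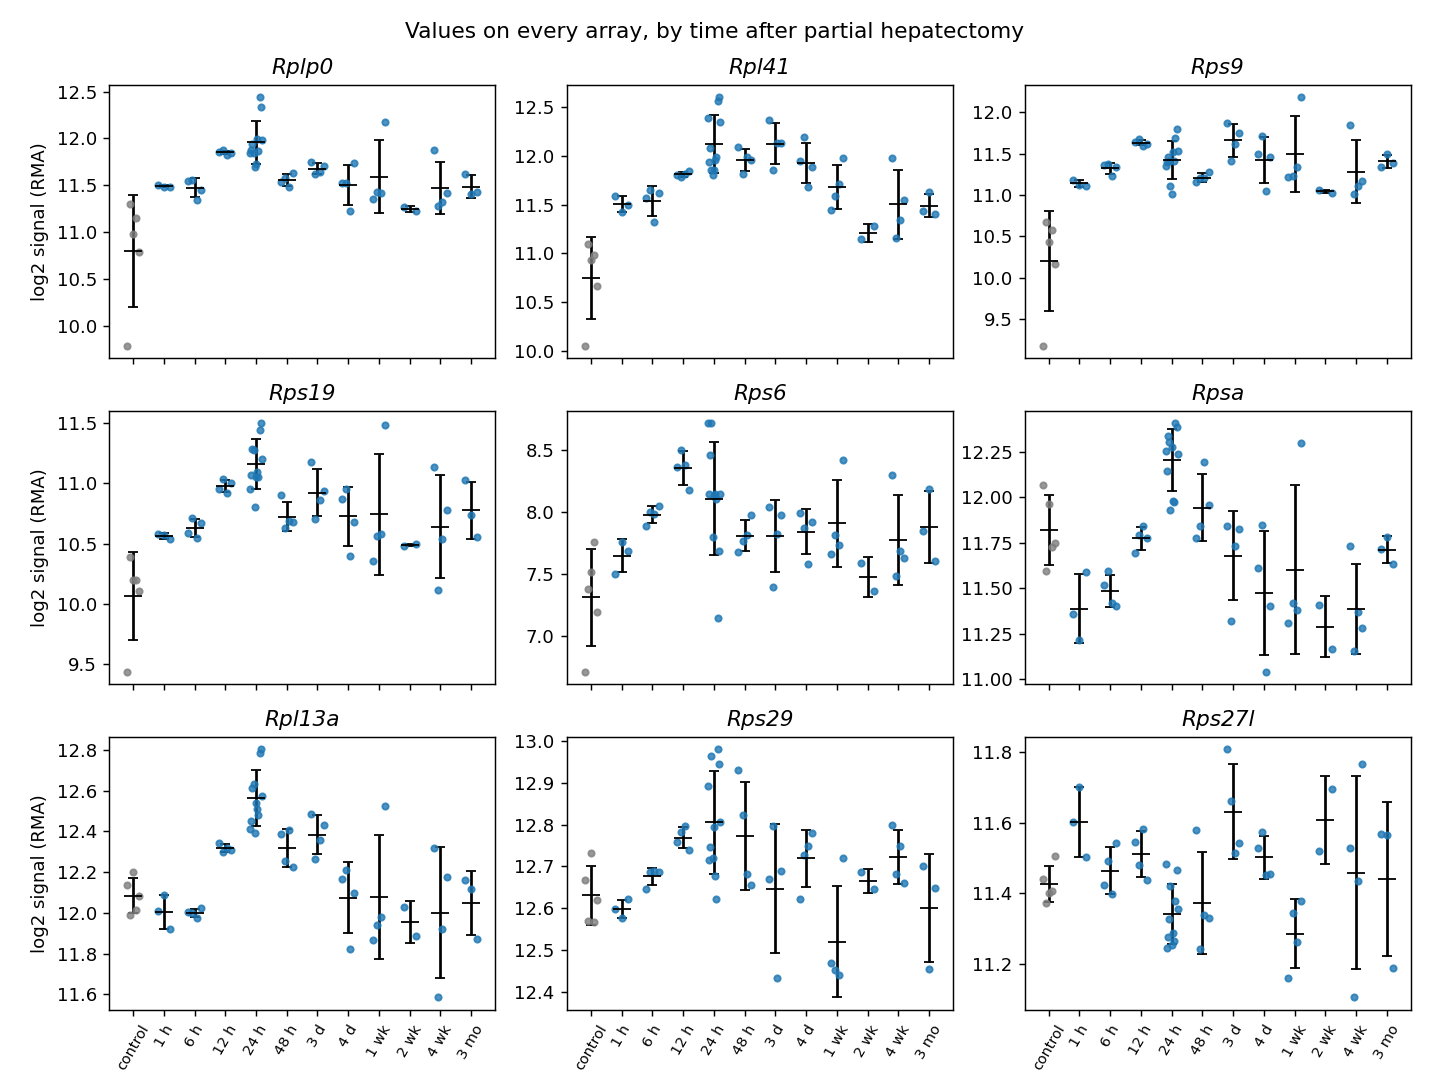
Log2 signal of 9 ribosomal protein genes on every array, by group, with controls in grey, operated mice in blue, and the mean and SD in black. Rplp0, Rpl41, Rps9 and Rps19 stay above the controls at most times, Rpsa and Rpl13a peak at 24 hours, and Rps27l shows no 24-hour rise.

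A different course was seen for Rpsa, the small subunit protein that also serves as a laminin receptor. It had 11.36, 11.22 and 11.59 at 1 hour and 11.93 to 12.41 at 24 hours, with a median of 12.26, against 12.07, 11.60, 11.96, 11.73 and 11.75 in controls. All 1-hour arrays were below all controls, but the difference of -0.43 ± 0.17 (SE) was not called (limma adjusted p = 0.13). At 24 hours the difference from controls was 0.38 ± 0.12 (SE, limma adjusted p = 0.014), and this call was lost without the Xist-positive arrays (limma adjusted p = 0.0501). At 4 weeks Rpsa was called lower, by -0.44 ± 0.15 (SE, limma adjusted p = 0.046), with 11.73, 11.16, 11.37 and 11.28. Its other probe set, of mean signal 2.31, gave 0.089 at 4 weeks.

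Rpl13a, widely used as a reference gene in quantitative PCR, also peaked at 24 hours. Its values were 12.01, 12.09 and 11.92 at 1 hour and 12.39 to 12.80 at 24 hours, with a median of 12.54, against 12.13, 11.99, 12.20, 12.01 and 12.08 in controls. All 24-hour arrays exceeded all controls, and the change was 0.48 ± 0.09 (SE, limma adjusted p = 7.2e-05). It was called higher at 24 hours and 3 days and at no other time, and all 4 of its probe sets were higher at 24 hours, by 0.48, 0.90, 0.54 and 1.04. Rpl11, which joins the 5S ribosomal RNA particle and can bind Mdm2, changed by 0.37 ± 0.08 (SE) at 24 hours and was called at 12 and 24 hours alone. Rpl22 changed by 0.37 ± 0.09 (SE) and Rps14 by 0.28 ± 0.10 (SE) at 24 hours. The other Rpl22 sets, of mean signal 9.81 and 6.92, differed by 0.78 and -0.74. The other Rps14 set, of mean signal 11.05, rose by 0.48. The 6 genes called higher at 24 hours and at no other time were Rpl38, Rpsa, Rps14, Rps20, Rps28 and Rps29. Of these, Rps14 had its highest group mean at 12 hours and the others at 24 hours. The 24-hour group held 11 arrays and the other times 2 to 4, so a call at 24 hours alone need not mean a larger change there.

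Contrasts between operated groups do not use the control means, although the controls enter the spread that the fit shares, and 12 against 6 hours, 24 hours against 1 hour and 3 months against 24 hours were added after the values had been seen. Between 24 hours and 1 hour, 17 genes were called higher and 1 lower, where 7.98% and 5.16% of all genes were. The covariate of hybridization controls gave 22 calls in this contrast, and without 1-hour replicate 1 or 2 there were 11 or 9. Rpsa had the smallest p, with 12.20 ± 0.17 at 24 hours (SD, n = 11) and 11.39 ± 0.19 at 1 hour (SD, n = 3), a difference of 0.82 ± 0.15 (SE, limma adjusted p = 1.8e-04). Rpl13a differed by 0.56 ± 0.11 (SE) and Rpl11 by 0.37 ± 0.09 (SE), both with no overlap of arrays. The gene called lower was Rps27l, a paralog of Rps27 that p53 induces, at 11.34 ± 0.09 at 24 hours (SD, n = 11) and 11.60 ± 0.10 at 1 hour (SD, n = 3).

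At 3 months, 15 genes were called lower than at 24 hours and 0 higher, where 9.44% of all genes were called lower and 10.8% higher. The fit of these 2 groups alone called 6. Rps20 differed by -0.59 ± 0.12 (SE, limma adjusted p = 3.9e-04), Rpl13a by -0.51 ± 0.11, Rpl41 by -0.63 ± 0.16 (0.093 with its dimmest set), Rplp2 by -0.53 ± 0.13 and Rplp0 by -0.47 ± 0.17. Without the Xist-positive arrays 9 genes were called, and without 3-month replicate 3 there were 5. The contrast of 12 with 6 hours gave 0 calls by limma, where 9.38% of all genes were called, although 43 of the 46 genes were higher at 12 hours, 32 of them with every array above (19.0% of all genes), and 12 reached an unadjusted p under 0.05. A limma fit of these 2 groups alone called 21 genes, and array weights gave 24.

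The contrasts fixed earlier gave few calls. At 48 hours Rps2, Rps25 and Rpsa were higher than at 1 hour. They were 6.52% of the 46 genes, near the 6.97% of all genes called higher. Rpsa differed by 0.56 ± 0.17 (SE), Rps2 by 0.31 ± 0.09 and Rps25 by 0.91 ± 0.29. Leaving out 48-hour replicate 3 or 1-hour replicate 1 gave 0 calls, and 48-hour replicate 4 or 1-hour replicate 2 gave 1. Rpl39, at the exit tunnel, was lower at 1 week than at 48 hours by -0.46 ± 0.13 (SE). With 1 of 46 genes called, the share was near the 1.66% of all genes called lower. This call was lost when any of 48-hour replicates 1, 2 and 3 or 1-week replicates 1 and 3 was left out. Between 3 months and 1 week limma called 0 genes, where it called 0.808% of all genes, 0 reached an unadjusted p under 0.05, and array weights gave 1.

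Ribosomal protein probe sets are among the brightest on the array, where signals can saturate. The highest value of any of the 46 genes on any array was 12.98, for Rps29, while the brightest probe set of each array lay between 13.92 and 14.24. The limit for genes near the top was 11.96, which is 1 log2 unit below 12.96, the mean signal that 0.1% of all probe sets exceed. Rpl37a, at 11.98, was the first gene above this limit, and Rps10, at 11.94, the first below it. At 24 hours all 8 genes above the limit were called higher, with a median change of 0.26 and a range of 0.17 to 0.53. Of 26 genes with a mean between 10 and the limit 24 were called, with a median of 0.63.

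Rps29 was the brightest. Its values at 24 hours were 12.62 to 12.98, with a median of 12.79, against 12.67, 12.57, 12.73, 12.57 and 12.62 in controls, and the groups overlapped. The change was 0.17 ± 0.07 (SE, limma adjusted p = 0.037). The other Rps29 probe sets, of mean signal 12.14 and 12.10, rose by 0.43 and 0.39. For Rps28 the brightest set rose by 0.28, and the others, of mean signal 12.09 and 11.73, by 0.24 and 0.21. Whether the scale compressed the changes of such bright genes was not tested.

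**Figure D4:**
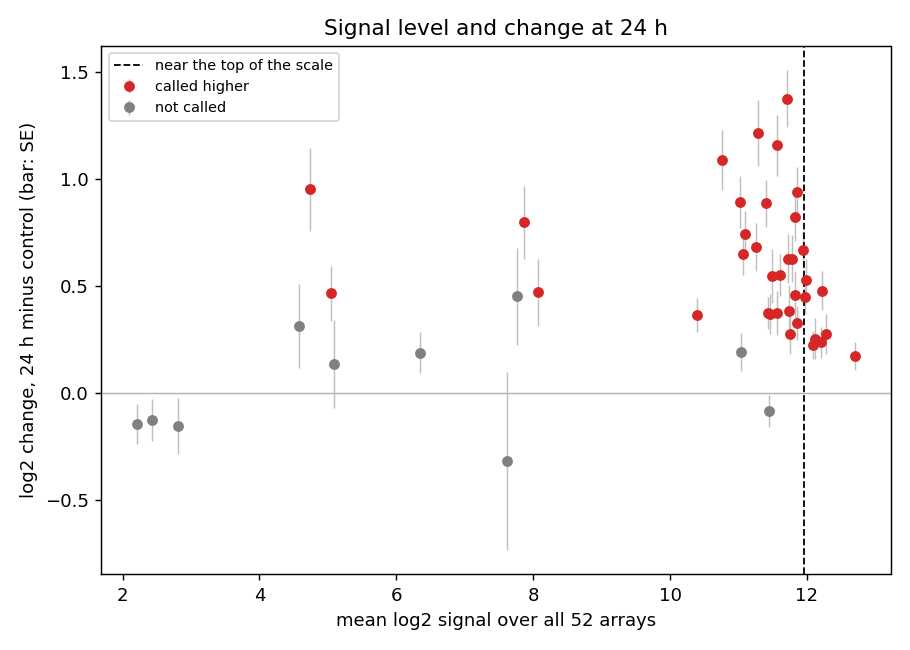
Log2 change at 24 hours minus control (points, with SE bars) against the mean log2 signal over 52 arrays for the 46 genes, in red where called higher, with the limit for genes near the top of the scale as a dashed line. The 8 genes right of the line changed by 0.17 to 0.53, and the largest changes, up to 1.38, lie to its left.

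At the other end, 12 genes had mean signals of 2.22 to 8.07, and 4 of them were called higher at 24 hours. Rps16, Rpl3l, a muscle paralog, and Rpl39l, a testis paralog, had means of 2.22, 2.43 and 2.81 and did not pass a filter on dim genes, which left out those whose brightest group lay under the 40th percentile and kept 43 of the 46. Their calls of lower signal, Rps16 at 4 days by -0.31 ± 0.11 (SE) and Rpl39l at 1 week by -0.41 ± 0.16 (SE), lie in this dim range. Rpl14 stood at 5.02 ± 0.36 at 24 hours (SD, n = 11) and 4.07 ± 0.34 in controls (SD, n = 5), a change of 0.95 ± 0.19 (SE). This call was lost with the hybridization controls as a covariate (limma adjusted p = 0.16). Rpl12, at the base of the stalk, had 4.01 ± 0.35 at 4 weeks (SD, n = 4) and 4.72 ± 0.16 in controls (SD, n = 5), and was called lower by -0.71 ± 0.24 (SE, limma adjusted p = 0.041). Without 4-week replicate 1 the adjusted p was 0.051.

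Genes of both subunits rose. At 24 hours 19 of 24 large subunit genes and 17 of 22 small subunit genes were called higher, with median changes of 0.46 and 0.42. At 12 hours the counts were 13 and 11, with medians of 0.31 and 0.42, and no difference between the subunits was tested. The 110 probe sets annotated to a ribosomal protein gene together with other genes, which name no single gene, gave 78 calls of higher signal and 0 of lower at 24 hours, with a median of 0.38, and 56 and 0 at 12 hours. Of all genes 18.9% were called higher at 24 hours and 17.9% at 12 hours.

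Further groups of the translation apparatus give the setting, each taken from a list chosen with earlier results of these data known. Their counts at 24 hours stand against 18.9% of all genes called higher and 12.8% lower. Ribosomal proteins whose names fall outside the rule were measured for 4 of 7 genes, and all 4 were called higher at 24 hours. Rpl22l1, the paralog of Rpl22, led them at 12 hours, at 11.14 ± 0.17 (SD, n = 4) and 9.70 ± 0.35 in controls (SD, n = 5). Its change was 1.43 ± 0.21 (SE), while the brightest probe set of Rpl22 changed by 0.35 ± 0.12. The list of translation factors with TOP messenger RNAs, another class under mTOR control, also holds Nap1l1, a histone chaperone and no translation factor. This list was divided, with 8 of 16 genes called higher and 3 lower at 24 hours and a median of 0.32. Nap1l1 rose by 2.06 ± 0.25 (SE) and Eef1b2, an exchange factor of elongation, by 1.15 ± 0.16 at 12 hours. Eif4b, a helicase cofactor, differed by -0.95 ± 0.13 at 12 hours and Eif4a2, a helicase of initiation, by -0.88 ± 0.10 at 24 hours.

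Ribosome biogenesis factors, which process ribosomal RNA and assemble subunits, showed 0 calls of 26 at 1 hour (limma), 12 higher at 6 hours, 21 at 12 hours and 21 at 24 hours, with medians of 0.46, 0.94 and 0.71 at the last 3 of these times. Nop58, of the box C/D particles, rose by 2.06 ± 0.34 (SE), Rrp12 by 1.94 ± 0.30 and Ltv1, an assembly factor of the small subunit, by 1.77 ± 0.22 at 12 hours. Their 24-hour arrays also differed from 1 hour in 15 genes, all higher, where 7.98% of all genes were called higher. Against controls at 1, 6, 12 and 24 hours, 3.67%, 11.4%, 17.9% and 18.9% of all genes were called higher. Mitochondrial ribosomal proteins, which form the separate ribosome of that organelle, gave 47 higher and 2 lower of 76 at 24 hours, 55 and 1 at 3 days, and 51 and 1 at 3 months, with medians of 0.44, 0.58 and 0.53. Of all genes 18.9%, 21.7% and 16.7% were called higher at these times. For 3 months against 24 hours they gave 9 higher and 3 lower of 76, where 10.8% of all genes were called higher, so the number higher was near the background. No difference between these groups was tested.

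**Figure D5:**
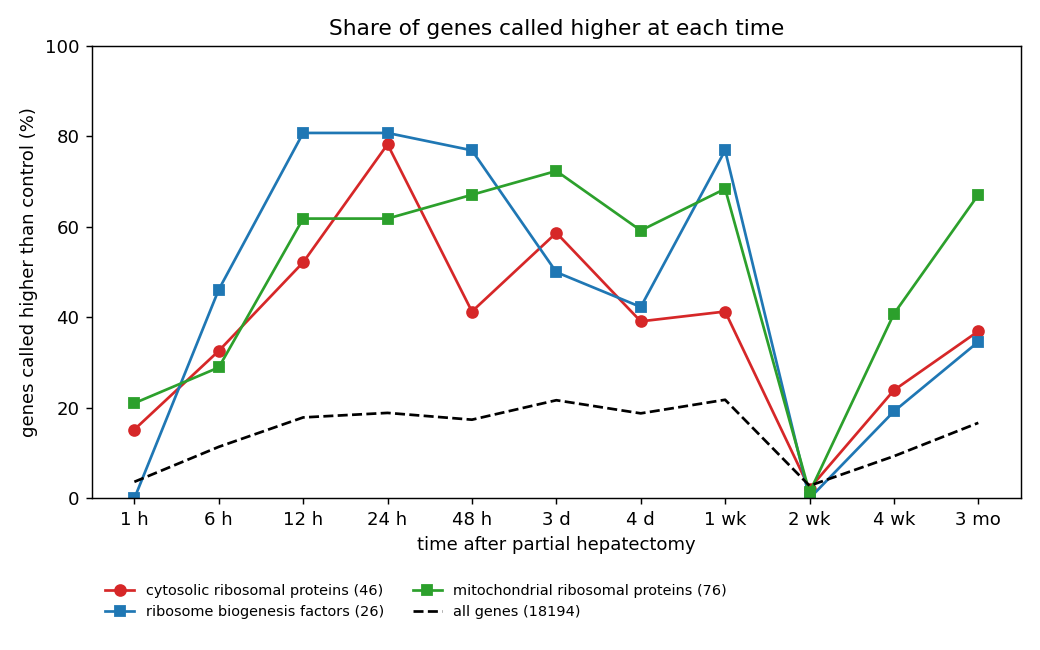
Share of genes called higher than control at each time after partial hepatectomy (%), for the 46 cytosolic ribosomal protein genes, 26 ribosome biogenesis factors, 76 mitochondrial ribosomal proteins and all 18194 genes. The cytosolic genes reach 78.3% at 24 hours, against 18.9% of all genes, and 2.17% at 2 weeks.

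RNA polymerase I and its factors, which make ribosomal RNA, gave 5 higher and 0 lower of 11 at 24 hours. Polr1e rose by 1.45 ± 0.29 (SE) at 12 hours and Polr1d, a subunit shared with RNA polymerase III, by 1.09 ± 0.16 at 6 hours. Among 11 regulators of ribosomal protein synthesis 2 were called higher and 0 lower at 24 hours, a share near the 18.9% of all genes called higher, with a median of 0.05. At 6 hours 1 of the 11 was called higher and 4 lower, where 2082 of all 18194 genes were called higher and 1917 lower. Maf1 differed by -0.61 ± 0.19 (SE) at 6 hours. Myc rose by 1.38 ± 0.54 (SE, limma adjusted p = 0.048) at 3 months, with a wide spread. Its SD was 1.33 at 3 months (n = 3) and 1.14 in controls (n = 5). Mdm2, the ubiquitin ligase that free ribosomal proteins can bind, rose by 0.91 ± 0.17 (SE) at 3 days. Larp1, which binds TOP messenger RNAs, was lower by -0.60 ± 0.14 (SE) at 12 hours.

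Over the 12 group means, the 3 genes outside the 46 whose course was most like that of the median ribosomal protein gene were Krtcap2, Tmed4 and Stt3b, with Pearson r of 0.97, 0.95 and 0.94. The genes were read on the same arrays, so these values are descriptions.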

How the data were processed

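Total RNA of mouse liver was labelled and hybridized, per the labels' protocols, to Affymetrix arrays of the Mouse Genome 430 2.0 type. The authors deposited log2 signals, 1 per probe set and array. The submitters' processing notes name RMA and oligo 1.52.0. That method subtracts background, brings arrays to a like distribution and combines the probes of a set, so a change common to most genes would not show. No scanner output or scan date was used. The number of arrays limits the precision, and array medians were 3.89 to 4.10.

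The platform annotation gave a single gene for 34958 of the 45101 probe sets and several genes for 932, and did not list 9211. Genes were matched to the GRCm38.p6 gene table through their identifiers (18033 of 18194). The brightest probe set stood for a gene, including for 12 of the 46 a set ending in _x_at, whose probes can bind related transcripts. Pseudogenes and near-identical copies of ribosomal protein genes are common, so these signals may include related sequences.

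Sample titles gave each array's group and replicate number. Group means of all 52 arrays were fitted together in limma 3.58.1 under R 4.3.3 (lmFit, eBayes), with two-sided p-values adjusted by Benjamini-Hochberg over 18194 genes. All comparisons with control share 5 arrays. The procedure was tested on simulated data. Alternatives were a replicate block, the 2 groups alone, other probe sets, a filter, 2 scalings, array weights, a technical covariate and arrays left out.

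The members, the gene lists and the limits for doubted arrays were chosen with earlier results of these data known. Named genes were up to 4 called members per direction and contrast with the largest change, the 5 brightest and 5 dimmest, genes fixed by role, the 6 smallest F test p-values, 3 most alike genes and up to 3 per direction and list. Rpl35, Rps18, Rpl37a and Rps10 were added for their sequences or for the signal limit, and genes in counts of 6 or fewer were named after their values were seen. Same-numbered arrays did not deviate together (median correlation of deviations -0.004 over 224 pairs, 0.001 over 988 others), so the numbers did not pair the arrays.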

Additional observations from a re-analysis of the deposited data

Results flagged for a closer look

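Of 104 groups of 4 to 10 arrays checked for a single array far from the rest, 8 had one, where chance gives about 1 in 20. The same arrays recur in these checks, and most of the 8 fell on 1-week replicate 4. The checks are therefore not independent, and the 8 do not measure an excess over that rate. On 1-week replicate 4 the median ribosomal protein gene lay 0.795 above the control mean, and 0.074 to 0.128 on the other 1-week arrays. Rplp0 was 12.17 on it (11.36 to 11.43 on the others), Rps9 12.18 (11.22 to 11.34), Rps26 11.90 (11.18 to 11.27) and Rpsa 12.30 (11.31 to 11.42). Rpl8 was 11.45 on 4-week replicate 1 (10.79 to 10.81 on the others). Rps4x was 11.84 on 3-day replicate 2 (12.10 to 12.15 on the others), and Rpl11 was 11.06 on 4-day replicate 3 (11.33 to 11.37 on the others).

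Tests between operated groups called 18 genes for 24 hours against 1 hour, where 7.98% of all genes were called higher and 5.16% lower. They called 15 lower for 3 months against 24 hours, where 9.44% of all genes were. The 3 called higher for 48 hours against 1 hour and the 1 called lower for 1 week against 48 hours were near the background. Of all genes, 6.97% were called higher and 1.66% lower in these contrasts.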

How the results depend on the processing

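Counts below are ribosomal protein genes called out of 46. Calls at 12 and 24 hours against control kept within 1.5 times of 24 and 36 under all alternatives run, and so did the F test count of 40. With the hybridization controls as a covariate there were 0 calls at 1 hour, 3 at 6 hours, 7 at 48 hours, 1 on day 3 and 0 on day 4 and after 1 week, 2 weeks, 4 weeks and 3 months, with 0 for 1 week against 48 hours and 2 for 12 against 6 hours. With the Gapdh difference as a covariate there were 0 at 1 hour, 5 at 6 hours, 12 at 48 hours, 15 on day 3, and 8, 0, 3 and 10 after 1, 2 and 4 weeks and 3 months. Fits of the 2 groups alone gave 0 at 1 hour, 7 after 1 week, 0 after 2 weeks, 2 after 4 weeks, 11 after 3 months, 5 for 48 hours against 1 hour, 0 for 1 week against 48 hours, 21 for 12 against 6 hours and 6 for 3 months against 24 hours. Array weights gave 13 at 1 hour, 3 at 2 weeks, 9 for 48 hours against 1 hour, 7 for 1 week against 48 hours, 1 for 3 months against 1 week, 24 for 12 against 6 hours and 29 for 24 hours against 1 hour. The dimmest probe set gave 4 at 1 hour, 7 at 6 hours, 0 at 2 weeks, 8 at 4 weeks, 5 for 48 hours against 1 hour, 2 for 1 week against 48 hours and 2 for 12 against 6 hours. The mean of probe sets gave 3 at 1 hour, 0 at 2 weeks, 2 for 1 week against 48 hours and 3 for 12 against 6 hours. Without the 7 doubted arrays there were 11 at 1 week, 5 at 4 weeks, 6 for 48 hours against 1 hour, 6 for 1 week against 48 hours and 11 for 12 against 6 hours. Without the Xist-positive arrays, an alternative chosen after seeing the data, 3 months against 24 hours gave 9. Quantile normalization gave 2 at 2 weeks and 1 for 12 against 6 hours. The causes were not tested.

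The replicate block gave 0 calls at 2 weeks, and 5 for 3 months against 24 hours, and moved no other count by over 1.5 times, but the numbers are not shown to pair the arrays. Median centring moved the median change of all genes from 0.02 to 0.15 at 1 week, the largest such move at the times against control, and its calls at 24 hours over all genes were 4055 higher and 1420 lower (3447 and 2329 without it), with 38 ribosomal protein genes called. Quantile normalization gave 2823 higher and 2968 lower over all genes. With it the median change of the 46 genes was 0.08 at 1 hour, 0.08 at 6 hours, 0.20 at 12 hours, 0.13 on day 4 and 0.12, 0.03, 0.07 and 0.11 after 1, 2 and 4 weeks and 3 months, and 0.16, 0.17, 0.37, 0.21, 0.26, 0.11, 0.12 and 0.22 without it.

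With single arrays of each group left out, except for the 11 arrays of 24 hours, which were not left out singly, counts ranged from 1 to 9 at 1 hour, 6 to 15 at 6 hours, 19 to 25 at 12 hours, 32 to 37 at 24 hours, 12 to 19 at 48 hours, 17 to 26 on day 3, 12 to 19 on day 4, 14 to 21 after 1 week, 0 to 2 after 2 weeks, 5 to 15 after 4 weeks and 11 to 20 after 3 months. They were 0 to 3 for 48 hours against 1 hour, 0 to 2 for 1 week against 48 hours, 9 to 12 for 24 hours against 1 hour and 5 to 10 for 3 months against 24 hours. The lowest count at 3 days came without 3-day replicate 1 and at 3 months without 3-month replicate 1.

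Of 67 changes of named genes, some reversed. With the dimmest probe set Rps9 had -0.79 at 1 hour, -0.25 at 2 weeks, -0.021 on day 4 and -0.12 at 4 weeks, Rps6 -0.22 at 12 hours and -0.11 at 24 hours, Rps4x -0.23 at 24 hours, Rpl27a -0.14 at 48 hours, Rps20 0.091 at 3 months, and Rpsa 0.089 at 4 weeks and -0.026 for 48 hours against 1 hour. Rpl41 had -0.81 at 1 hour and 0.093 for 3 months against 24 hours with it and without _x_at sets. With the hybridization covariate Rpl14 had -0.044 at 1 week and -0.13 at 3 months, and Rpl39l 0.067 at 1 week. Under all alternatives and arrays left out, 1090 recomputed changes kept direction and call, 244 lost the call and 18 reversed.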
